A study of Homo sapiens with 6 samples.

Results

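The mitochondrial ribosomal proteins were taken as all rows of the deposited count table whose gene symbol is MRPL or MRPS followed by a number and at most a letter A to C. This gave 78 of the 39396 rows, 49 of the large subunit (MRPL) and 29 of the small subunit (MRPS). Choice by symbol used no measured value. It leaves out 5 proteins of the same ribosome that carry other names, which are described at the end.

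The mitochondrial ribosome translates the few mRNAs of the mitochondrial genome, which in humans encode only subunits of the respiratory chain and of ATP synthase. Its rRNAs are transcribed from mitochondrial DNA, whereas all of its proteins are encoded in the nucleus, made in the cytosol and imported. The small subunit reads the mRNA, and the large subunit joins amino acids and holds the tunnel through which the new chain leaves. Some of its proteins have counterparts in bacterial ribosomes and the others were added during the evolution of mitochondria. Compared with the bacterial ribosome, it holds less rRNA and more protein.

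RNA was sequenced from RKO, a human colorectal carcinoma line, with 3 libraries labelled Olaparib and 3 labelled DMSO, the solvent. All 6 carry the label WT for genotype. Olaparib inhibits the PARP enzymes, which detect DNA strand breaks, and the study's title concerns KAT2B, RAD51C and sensitivity to this drug. Dose and duration of treatment are not given in the sources used. The olaparib libraries held 28715138 to 31387990 counts and the DMSO libraries 29544974 to 42423785.

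The labelled cell identity was set beside marker genes. Of 8 markers of intestinal epithelium, 7 were below 1 CPM (a gene's count relative to the scaled total of its library) in every olaparib library and 6 in every DMSO library, and CDX1 had no count in any of the 6. CDX2 had no count in olaparib and 22.5 to 26.5 CPM in DMSO, whereas EPCAM was at 2.79 to 5.91 CPM in olaparib and 0.902 to 1.15 CPM in DMSO. The summed level of these 8, mostly CDX2 in DMSO and EPCAM in olaparib, was 2.97 to 6.34 CPM in olaparib and 23.9 to 27.8 CPM in DMSO. Of general epithelial genes, KRT8, KRT18 and CDH1 summed to 804 to 1083 CPM in olaparib and 218 to 285 CPM in DMSO. KRT8 and KRT18 made up nearly all of this sum. CDH1 was at 0.419 to 1.45 CPM in olaparib and 0.836 to 1.02 CPM in DMSO, where the groups overlapped. Fibroblast genes summed to 99.8 to 135 CPM in olaparib and 88.8 to 96.3 CPM in DMSO, but the single genes went both ways. COL1A1, most of the sum in both groups, was higher in olaparib, whereas COL3A1, LUM and DCN were lower. LUM was at 0.0653 to 0.349 CPM in olaparib and 18.2 to 19.8 CPM in DMSO. Of the 5 fibroblast genes, 4 were below 1 CPM in every olaparib library and 1 in every DMSO library. Blood genes were below 1 CPM in every library. The summed level of 8 genes known from the embryonic kidney line HEK293 was 16.4 to 18.6 CPM in olaparib and 488 to 711 CPM in DMSO, and all 8 were above 1 CPM in every DMSO library. The part of this in the results was not tested. All directions below are between libraries as labelled, and treatment and a difference in cell source cannot be told apart.

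The promoters of 5 members are shown first, chosen because these genes are among the largest changes or carry the motifs described near the end. They are 250 bases before the RefSeq transcription start (GRCh38.p14), 5′ to 3′ on the gene's strand. Capitals mark matches, on either strand, to GCGCA, any base and GCGC (NRF1), to CCGGAAG (ETS family) or to AAGATGGCG (YY1). MRPS26 (chr20:3045802-3046051, plus strand) and MRPL52 (chr14:22829637-22829886, plus strand) were lower in olaparib, and the other 3, MRPL36 (chr5:1799838-1800087, minus strand), MRPL30 (chr2:99180934-99181183, plus strand) and MRPS30 (chr5:44808697-44808946, plus strand), were higher. In these 250 bases MRPS26 has a single ETS match near the start, MRPL52 holds YY1 matches only, MRPL36 and MRPL30 pair an NRF1 match with another motif, and MRPS30 holds no match. The motif counts near the end also take in the 50 bases after the start, which are not printed, and there MRPL52 also counts for ETS and MRPS30 for YY1.
MRPS26: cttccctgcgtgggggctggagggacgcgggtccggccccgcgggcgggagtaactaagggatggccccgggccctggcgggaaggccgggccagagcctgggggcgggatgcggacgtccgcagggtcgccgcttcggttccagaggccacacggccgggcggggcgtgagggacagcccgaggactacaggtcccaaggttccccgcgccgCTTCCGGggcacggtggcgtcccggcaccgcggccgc
MRPL52: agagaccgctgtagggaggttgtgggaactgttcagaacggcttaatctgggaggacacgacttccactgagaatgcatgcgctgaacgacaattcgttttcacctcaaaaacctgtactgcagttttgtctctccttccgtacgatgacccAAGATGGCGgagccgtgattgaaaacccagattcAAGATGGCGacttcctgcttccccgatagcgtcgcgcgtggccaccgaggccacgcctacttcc
MRPL36: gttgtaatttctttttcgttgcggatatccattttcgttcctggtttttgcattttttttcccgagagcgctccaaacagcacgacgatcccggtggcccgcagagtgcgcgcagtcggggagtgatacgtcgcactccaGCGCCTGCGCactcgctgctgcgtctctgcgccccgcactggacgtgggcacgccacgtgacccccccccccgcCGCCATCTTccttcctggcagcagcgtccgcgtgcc
MRPL30: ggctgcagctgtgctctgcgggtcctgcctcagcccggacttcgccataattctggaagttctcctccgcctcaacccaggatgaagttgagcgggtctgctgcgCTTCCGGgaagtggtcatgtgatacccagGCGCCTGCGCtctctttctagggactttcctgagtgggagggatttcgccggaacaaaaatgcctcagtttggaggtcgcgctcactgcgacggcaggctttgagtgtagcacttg
MRPS30: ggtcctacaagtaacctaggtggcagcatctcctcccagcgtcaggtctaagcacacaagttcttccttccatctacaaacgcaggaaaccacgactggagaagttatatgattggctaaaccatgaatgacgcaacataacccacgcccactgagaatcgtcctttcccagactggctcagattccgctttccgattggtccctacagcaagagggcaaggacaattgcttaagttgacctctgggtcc

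In the olaparib libraries most of the mitochondrial ribosomal protein genes were expressed at a lower level. Of the 77 with enough counts to test, 47 were called lower, where a call is an adjusted p below 0.05 in edgeR's quasi-likelihood test over 17078 genes. By the same rule 40.3% of all genes were called lower. A rise was called for 7 members, against 35.4% of all genes, and 23 did not pass. Calls in either direction were thus made for 54 members, against 75.7% of all genes, so that these libraries differed in most of what they expressed. The median log2 fold change, olaparib over DMSO, was -0.53 for the members and -0.09 for all genes.

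A fall of at least 2-fold was called for 21 members (27.3%), near the 25.0% of all genes, and a rise of at least 2-fold for 2 members, against 22.0% of all genes. The members' log2 fold changes had an SD of 0.83, and those of all genes one of 2.79. Every olaparib value lay below every DMSO value for 49 members (42.0% of all genes) and above them for 9 members (37.3% of all genes), while the groups overlapped for 19. The labels do not say whether replicates are separate cultures, so the p-values rest on a spread between libraries that may be technical. In bulk RNA, less RNA per cell and fewer cells of a type cannot be told apart.

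**Figure D1:**
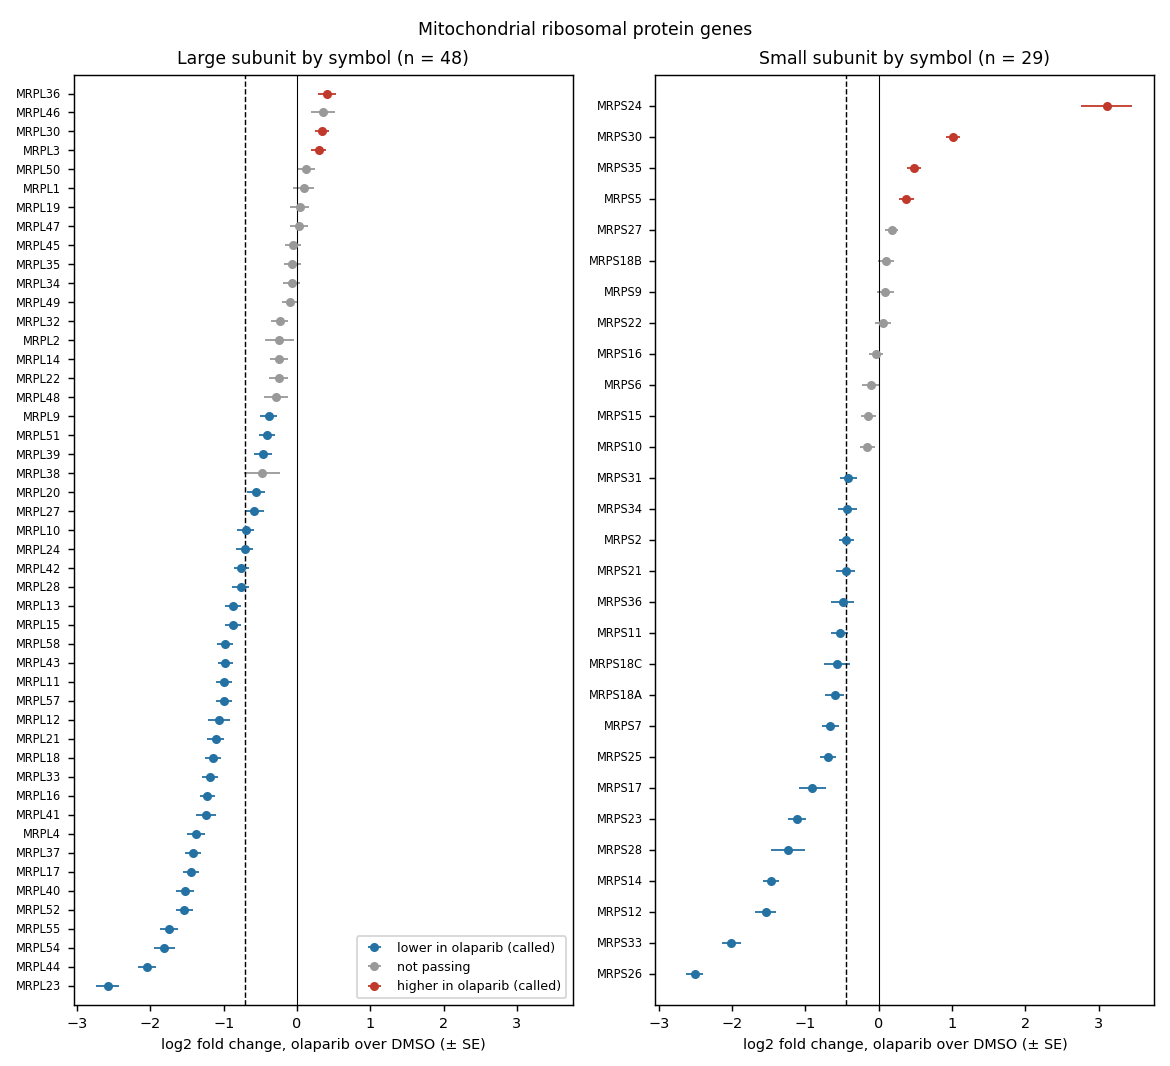
The log2 fold change, olaparib over DMSO, with its standard error for each of the 77 members tested, 48 of the large subunit on the left and 29 of the small subunit on the right; blue and red points were called lower and higher, and the dashed line is the subunit's median. Most points of both subunits lie left of 0, with medians of -0.71 and -0.44, and MRPS24 and MRPS30 stand furthest to the right.

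Falls outnumbered rises in both subunits, with a lower median in the large. Of its 48 members tested, 30 (62.5%) were lower, 3 (6.25%) higher and 15 did not pass, and 15 (31.25%) fell by at least 2-fold. Of the 29 of the small subunit, 17 (58.6%) were lower, 4 (13.8%) higher and 8 did not pass, and 6 (20.7%) fell by at least 2-fold. Over all genes 40.3% were lower, 35.4% higher and 25.0% lower by at least 2-fold. Counts given below for parts of the particle and for chromosomes rest on few members and stand beside these shares. The median log2 fold change was -0.71 in the large and -0.44 in the small subunit, a difference smaller than the SD among members of either (0.68 and 1.01). No test of the subunits against each other was made, since members are not replicates.

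Among large subunit proteins the deepest fall was in MRPL23, a protein at the exit of the peptide tunnel (chr11:1947278-1984522; gene positions are from GENCODE 29 on GRCh38). It had 9.49, 8.10 and 7.50 CPM in the olaparib libraries, against 49.0, 59.5 and 41.7 CPM in the DMSO libraries. The olaparib values lay close together and far below every DMSO value. MRPL23 was 5.98-fold lower (log2 fold change -2.58 ± 0.16, SE, edgeR adjusted p = 2.51e-08).

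MRPL44, which resembles ribonuclease III and is mutated in an infantile cardiomyopathy (chr2:223957404-223967714), had 11.5, 9.90 and 11.0 CPM in the olaparib libraries, against 46.4, 45.7 and 41.6 CPM in the DMSO libraries. It was 4.12-fold lower, with a log2 fold change of -2.04 ± 0.12 (SE). MRPL54, which lies near the stalk of the large subunit (chr19:3762664-3768575), had 9.42, 11.3 and 11.2 CPM in the olaparib libraries, against 36.5, 42.2 and 33.3 CPM in the DMSO libraries. The groups were well apart in both genes. MRPL55 (chr1:228106679-228109312) had 37.5, 35.2 and 30.4 CPM in the olaparib libraries, against 109, 131 and 105 CPM in the DMSO libraries. MRPL52, a protein specific to mitochondria (chr14:22829879-22835037), had 27.3, 24.2 and 24.8 CPM in the olaparib libraries, against 74.1, 82.4 and 65.5 CPM in the DMSO libraries. MRPL54, MRPL55 and MRPL52 were 3.50-fold lower, 3.35-fold lower and 2.91-fold lower, with adjusted p values of 1.68e-07, 8.12e-08 and 1.45e-07 by edgeR.

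The stalk and GTPase centre, where translation factors bind, was lower throughout among the members that could be tested. All 4 tested members, MRPL54, MRPL12, MRPL11 and MRPL10, were lower, with a median log2 fold change of -1.03. MRPL12, the stalk protein that contacts the factors, had 10.1, 11.2 and 11.2 CPM in the olaparib libraries, against 25.3, 24.1 and 18.8 CPM in the DMSO libraries. The same protein is known to bind the mitochondrial RNA polymerase. Its groups did not overlap, and it was 2.10-fold lower. MRPL11, at the base of the stalk, had 53.0, 57.4 and 51.8 CPM in the olaparib libraries, against 106, 121 and 95.9 CPM in the DMSO libraries. MRPL10, the anchor of the MRPL12 copies, had 76.7, 67.1 and 62.2 CPM in the olaparib libraries, against 98.9, 125 and 111 CPM in the DMSO libraries. MRPL11 was 1.99-fold lower and MRPL10 1.63-fold lower, again without overlap of the groups. Of the exon bases of MRPL12, 68.2% are shared with another annotated gene on the same strand, so its counts are uncertain.

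Proteins of the exit tunnel behaved less evenly, with 4 of 7 lower, 0 higher and a median log2 fold change of -0.72. MRPL23, MRPL17 and MRPL4 fell most, with log2 fold changes of -2.58, -1.44 and -1.38, against -0.72 for MRPL24. MRPL24, near the tunnel's mouth, had 52.9, 51.3 and 49.2 CPM in the olaparib libraries, against 75.8, 97.2 and 79.0 CPM in the DMSO libraries. The other 3 did not pass. MRPL45, which contacts the inner membrane near the exit, had 56.2, 48.8 and 48.4 CPM in the olaparib libraries, against 47.9, 58.3 and 53.7 CPM in the DMSO libraries. MRPL47, the counterpart of bacterial L29, had 21.8, 24.2 and 21.8 CPM in the olaparib libraries, against 22.6, 23.9 and 20.01 CPM in the DMSO libraries. In MRPL45 and MRPL47 the groups overlapped. MRPL22, which lines the tunnel, had a log2 fold change of -0.25 ± 0.12 (SE) with an adjusted p of 0.0813 by edgeR.

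Around the peptidyl transferase centre, where peptide bonds form, 2 of 4 members were lower and 1 was higher. MRPL16 and MRPL27 fell, with log2 fold changes of -1.22 ± 0.11 (SE) and -0.58 ± 0.12 (SE), and MRPL2 did not pass at -0.24 ± 0.19 (SE). MRPL3 had 129.9, 133 and 138 CPM in the olaparib libraries, against 117, 110.0 and 101 CPM in the DMSO libraries, and was 1.23-fold higher (log2 fold change 0.29 ± 0.10, SE, edgeR adjusted p = 0.0154). All its olaparib values stood above the DMSO values, but the call was lost without olaparib replicate 2 or 3 or DMSO replicate 3 (adjusted p = 0.0521, 0.0507 and 0.0653 by edgeR).

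The central protuberance, which contacts the tRNAs and the head of the small subunit, had 3 of 6 members lower and 0 higher. MRPL40 and MRPL18 fell, with log2 fold changes of -1.53 and -1.15. MRPL58, known as ICT1, is a peptidyl-tRNA hydrolase that became part of the ribosome. MRPL58 had 29.3, 27.8 and 26.9 CPM in the olaparib libraries, against 52.8, 60.6 and 52.3 CPM in the DMSO libraries, without overlap, and was 1.97-fold lower (log2 fold change -0.98 ± 0.11, SE, edgeR adjusted p = 4.05e-06). The other 3, MRPL38, MRPL46 and MRPL48, did not pass, with log2 fold changes of -0.48 ± 0.24 (SE), 0.36 ± 0.16 (SE) and -0.28 ± 0.16 (SE). MRPL38 and MRPL46 share 67.8% and 45.4% of their exon bases with other annotated genes on the same strand, so their counts are uncertain.

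Besides MRPL3, rises in the large subunit were called for MRPL36 and MRPL30, both with bacterial counterparts. MRPL36, a small zinc-binding protein (chr5:1798386-1801366), had 50.4, 41.8 and 42.3 CPM in the olaparib libraries, against 36.6, 35.2 and 29.3 CPM in the DMSO libraries. MRPL30 (chr2:99181079-99197626) had 97.2, 95.5 and 91.9 CPM in the olaparib libraries, against 76.3, 79.6 and 69.7 CPM in the DMSO libraries. Both groups were apart in each gene, though by little in MRPL36. MRPL36 was 1.33-fold higher and MRPL30 1.26-fold higher, with edgeR adjusted p values of 0.00868 and 0.00674.

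The remaining large subunit members sit elsewhere in the particle. Falls of at least 2-fold were also called for MRPL37, MRPL41, MRPL33 and MRPL21, with log2 fold changes of -1.42 ± 0.11 (SE), -1.24 ± 0.13 (SE), -1.18 ± 0.11 (SE) and -1.11 ± 0.12 (SE). MRPL57, MRPL43, MRPL15, MRPL13, MRPL28, MRPL42, MRPL20, MRPL39, MRPL51 and MRPL9 were lower, from -0.99 for MRPL57 to -0.39 for MRPL9. The members that did not pass, beside those already given, were MRPL14, MRPL32, MRPL49, MRPL34, MRPL35, MRPL19, MRPL1 and MRPL50. Their log2 fold changes ran from -0.24 for MRPL14 to 0.13 for MRPL50. Members were also grouped by bacterial counterpart. MRPL55 was placed among those without one but may have one, and the split was not redone with it moved. Large subunit members grouped as without a counterpart had 13 of 19 lower and 0 higher, with a median of -0.98. Those with one had 17 of 29 lower and 3 higher, with a median of -0.58. The SD among members was 0.71 without a counterpart and 0.66 with one. In the small subunit by symbol the medians were close, at -0.43 without a counterpart and -0.45 with one. There 7 of 11 without a counterpart were lower and 2 higher, and with one 10 of 18 were lower and 2 higher.

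In the small subunit the deepest fall was in MRPS26, which has no bacterial counterpart (chr20:3045945-3048254). It had 17.8, 17.5 and 19.6 CPM in the olaparib libraries, against 112, 112 and 89.9 CPM in the DMSO libraries. Each olaparib value was a small part of each DMSO value. MRPS26 was 5.71-fold lower (log2 fold change -2.51 ± 0.12, SE, edgeR adjusted p = 3.66e-09).

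Falls also marked proteins of the head, the part of the small subunit that moves during translocation. MRPS33 (chr7:141002610-141015228) had 11.4, 9.77 and 11.8 CPM in the olaparib libraries, against 40.9, 49.8 and 42.4 CPM in the DMSO libraries, and was 4.03-fold lower. MRPS14, the counterpart of bacterial S14 (chr1:175010789-175023425), had 19.3, 21.6 and 21.5 CPM in the olaparib libraries, against 60.7, 59.4 and 52.2 CPM in the DMSO libraries, and was 2.76-fold lower. The groups were well apart in both. MRPS7 and MRPS31, other head proteins, fell, with log2 fold changes of -0.66 and -0.41. Of 7 members grouped under the head, 4 were lower and 1 higher, and MRPS10 and MRPS9 did not pass. MRPS24, grouped with the decoding centre and mRNA channel, and DAP3, a head protein under another symbol, are not among these. Both were called higher and are given below.

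Among the members grouped under the head, the higher was MRPS35 (chr12:27710773-27756295), which is specific to mitochondria. MRPS35 had 92.5, 93.7 and 103 CPM in the olaparib libraries, against 72.5, 70.8 and 63.7 CPM in the DMSO libraries, without overlap, and was 1.40-fold higher (log2 fold change 0.48 ± 0.10, SE, edgeR adjusted p = 0.000768).

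The decoding centre and the mRNA channel showed both directions. MRPS12, the counterpart of the bacterial decoding protein S12 that carries streptomycin resistance (chr19:38930548-38933162), had 31.0, 26.7 and 24.3 CPM in the olaparib libraries, against 91.3, 82.7 and 64.4 CPM in the DMSO libraries. It was 2.90-fold lower (log2 fold change -1.54 ± 0.14, SE, edgeR adjusted p = 9.46e-07). Of its exon bases 21.5% are shared with SARS2 on the opposite strand, and with the strand setting not known its counts are uncertain. MRPS5, at the entry of the mRNA channel (chr2:95087207-95149434), had 110.4, 107 and 106 CPM in the olaparib libraries, against 87.1, 88.4 and 73.7 CPM in the DMSO libraries. It was 1.30-fold higher, with an adjusted p of 0.00507 by edgeR, and its groups did not overlap. MRPS24, the counterpart of bacterial S3, had 3.87, 4.54 and 5.31 CPM in the olaparib libraries, against 0.641, 0.674 and 0.294 CPM in the DMSO libraries. This was the largest rise of any member at 8.63-fold higher (log2 fold change 3.11 ± 0.34, SE, edgeR adjusted p = 4.44e-06), but at the lowest DMSO level of any tested member. It rested on 27, 20 and 13 counts in DMSO. Of the exon bases of MRPS24 (chr7:43866558-43869893), 77.0% are shared with the readthrough gene URGCP-MRPS24, which had no count in any library. URGCP itself was higher, by 0.41 ± 0.11 (SE) on the log2 scale. How reads were shared out among these overlapping genes is not known from the sources used, so this rise is uncertain.

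MRPS30 rose more clearly in absolute level. Its symbol names the small subunit, but the protein sits in the large subunit. MRPS30 (chr5:44808925-44820428) had 196, 198 and 207 CPM in the olaparib libraries, against 101, 102 and 94.3 CPM in the DMSO libraries. Every olaparib library was near 200 CPM and every DMSO library near 100, and it was 2.02-fold higher (log2 fold change 1.02 ± 0.09, SE, edgeR adjusted p = 8.28e-07). The divergent noncoding transcript MRPS30-DT, counted separately, was also higher, at 8.79, 8.23 and 10.2 CPM in olaparib and 1.99, 2.70 and 3.10 CPM in DMSO.

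Of the body and platform, 8 of 14 proteins were lower and 0 higher. Besides MRPS26, MRPS23 fell at least 2-fold, with a log2 fold change of -1.12 ± 0.12 (SE), and MRPS17, MRPS25, MRPS18C, MRPS11, MRPS21 and MRPS34 were lower, with log2 fold changes from -0.90 for MRPS17 to -0.43 for MRPS34. MRPS6, MRPS15, MRPS16, MRPS18B, MRPS22 and MRPS27 did not pass, with log2 fold changes from -0.14 for MRPS15 to 0.18 for MRPS27. MRPS2, the counterpart of bacterial S2, was lower, with a log2 fold change of -0.44. MRPS28 (chr8:79918717-80030289) had 2.79, 2.35 and 2.16 CPM in the olaparib libraries, against 6.32, 6.17 and 4.70 CPM in the DMSO libraries, and was 2.35-fold lower at a low level. It shares 42.0% of its exon bases with another annotated gene on the same strand, so its counts are uncertain.

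The S18 family has 3 members in humans, of which MRPS18A sits in the large subunit and the other two in the small. MRPS18A had 22.4, 22.1 and 19.2 CPM in the olaparib libraries, against 34.4, 34.0 and 28.5 CPM in the DMSO libraries. MRPS18C had 7.57, 8.04 and 8.99 CPM in the olaparib libraries, against 13.2, 13.5 and 9.74 CPM in the DMSO libraries. Both were lower, with log2 fold changes of -0.60 ± 0.12 (SE) and -0.57 ± 0.18 (SE), and in neither did the groups overlap. Of their exon bases, 56.9% in MRPS18A and 78.9% in MRPS18C are shared with genes on the opposite strand. The strand setting is not known, so the counts of both are uncertain. MRPS18B had 113, 112 and 111 CPM in the olaparib libraries, against 98.3, 118 and 96.8 CPM in the DMSO libraries, where the groups overlapped and the log2 fold change was 0.10 ± 0.10 (SE). MRPS18B was thus the most abundant of the family per length in both groups, at 73.0 CPM per kb in olaparib and 68.2 CPM per kb in DMSO, and the one without a call.

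MRPS36 carries a ribosomal symbol but is known as a subunit of the 2-oxoglutarate dehydrogenase complex. It had 23.8, 21.9 and 16.1 CPM in the olaparib libraries, against 28.6, 33.2 and 25.2 CPM in the DMSO libraries. The groups did not overlap, and it was 1.40-fold lower (log2 fold change -0.49 ± 0.16, SE, edgeR adjusted p = 0.0144). The call was lost without olaparib replicate 3 (adjusted p = 0.0953 by edgeR).

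**Figure D2:**
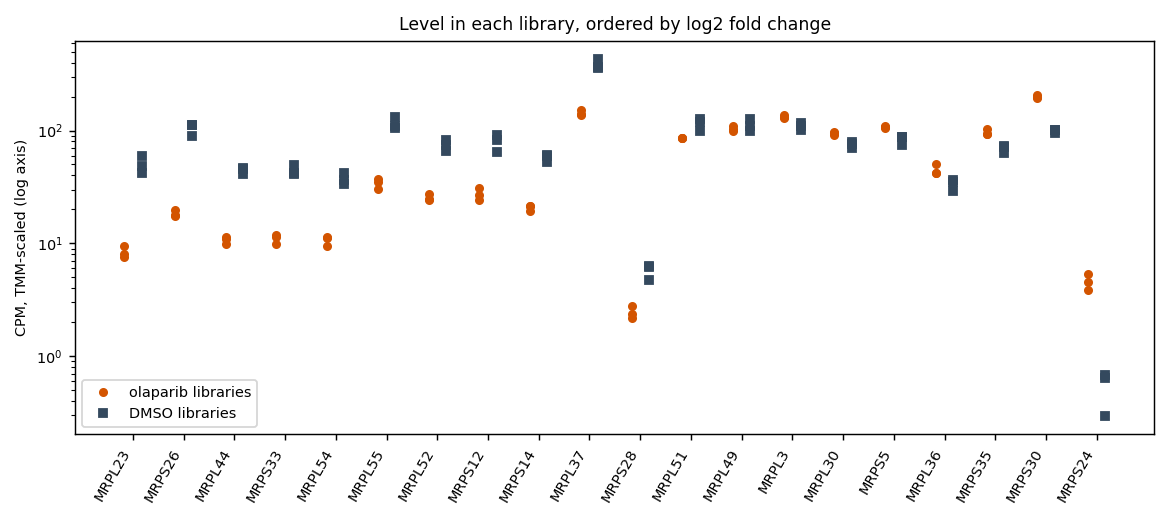
The level of 20 members in each library, as CPM on a log axis, with 3 olaparib libraries (circles, left) and 3 DMSO libraries (squares, right) per gene, ordered by log2 fold change. From MRPL23 to MRPS28 the circles lie below the squares, with gaps that narrow towards MRPL51 and MRPL49, and from MRPL3 to MRPS24 they lie above.

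Summed over members, the large subunit fell by more than the small. The MRPL rows summed to 2143, 2058 and 2051 CPM in the olaparib libraries, against 3473, 3675 and 3063 CPM in the DMSO libraries. The MRPS rows summed to 1593, 1578 and 1567 CPM in olaparib, against 1944, 1985 and 1706 CPM in DMSO. In both sums all olaparib libraries lay below all DMSO libraries. The large subunit's sum was 1.63-fold lower and the small subunit's 1.19-fold lower.

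The ratio of the large to the small sum was 1.32 ± 0.0224 in olaparib and 1.81 ± 0.0352 in DMSO (SD, n = 3 each). It needs no scaling between libraries. The size of this difference depended on single abundant genes. With MRPS18A and MRPS30 moved to the large subunit, where their proteins sit, and MRPS36 left out, the ratio was 1.72 ± 0.0210 in olaparib and 2.06 ± 0.0372 in DMSO. Without MRPS30 it was 1.51 in olaparib and 1.91 in DMSO, and without MRPL37 it was 1.23 in olaparib and 1.61 in DMSO. The groups stayed apart in each of these. Together the members took 0.358% of all counts in olaparib and 0.540% in DMSO.

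**Figure D3:**
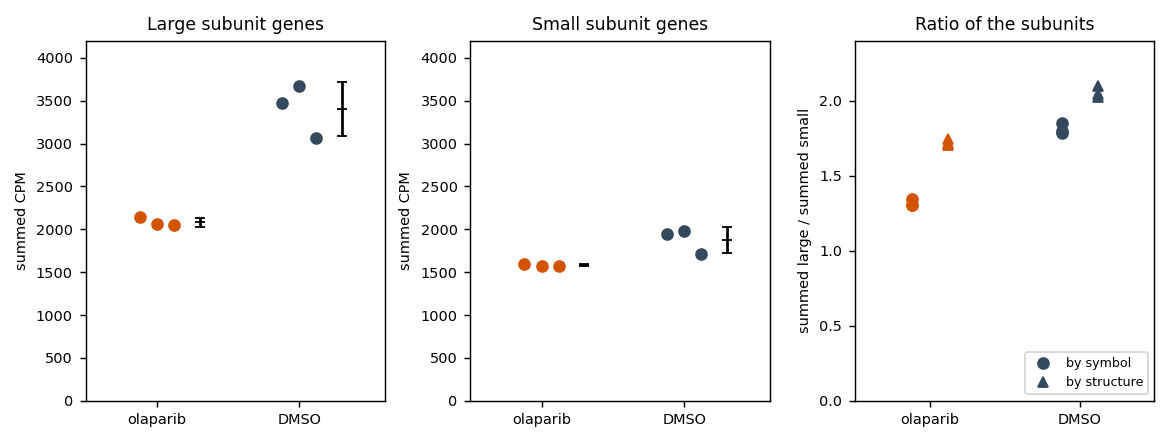
Summed CPM of large and of small subunit genes in each library, with mean and SD over 3 libraries (n = 3), and the ratio of the sums by symbol (circles) and by structure (triangles), olaparib left of DMSO. The olaparib values lie below the DMSO values in all panels, and the distance between groups in the ratio is smaller by structure than by symbol.

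Most of these proteins are present in a single copy per ribosome, but their mRNA levels were far from equal. Per length of transcript (CPM per kb), the members' 10th to 90th percentiles ran from 10.2 to 76.0 in olaparib and from 12.1 to 101 in DMSO. The ratio of these percentiles was 7.47 in olaparib and 8.34 in DMSO. By mean over all libraries the highest levels per kb were those of MRPL49, MRPL51 and MRPL37. Ranks and spread depend on the lengths used, which were medians over annotated coding transcripts. These were 509.5 bases for MRPL49 and 551 for MRPL51, whereas all their annotated exons joined cover 2149 and 1551 bases. MRPL37 had 154, 141 and 138 CPM in the olaparib libraries, against 359, 434 and 362 CPM in the DMSO libraries, and so ranked 4th in olaparib and 1st in DMSO. Its level per kb was 97.3 in olaparib and 260 in DMSO. MRPL49 had 110.1, 103 and 99.6 CPM in the olaparib libraries, against 125, 110.0 and 98.7 CPM in the DMSO libraries, and did not pass. MRPL51 had 86.6, 85.2 and 86.6 CPM in the olaparib libraries, against 118, 127 and 99.6 CPM in the DMSO libraries, and was 1.33-fold lower (log2 fold change -0.41 ± 0.11, SE, edgeR adjusted p = 0.0037). Of its exon bases 31.3% are shared with NCAPD2 on the opposite strand, and with the strand setting not known its counts are uncertain. MRPL51 encodes a protein specific to mitochondria, as does MRPL49. The order of the levels differed between the groups, with MRPS30 ranked 3rd in olaparib and 38th in DMSO, and MRPS26 ranked 56th in olaparib and 13th in DMSO.

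MRPL53, a protein near the stalk, had no count in any of the 6 libraries. A count of 0 allows up to 3 counts, or 0.0956 to 0.104 CPM in the olaparib libraries and 0.0707 to 0.102 CPM in the DMSO libraries, for counting error only. Of its exon bases 52.3% are shared on the same strand with CCDC142, which had 923 to 999 counts in olaparib and 816 to 1613 in DMSO. Reads in the shared part cannot be assigned to either gene from this table. Unlike CCDC142 and URGCP-MRPS24, the same-strand genes that overlap MRPL12, MRPL38, MRPL46 and MRPS28 are not rows of the table under their annotated names. Whether they took part in the counting is not known. Of the 77 members tested, 60 share under 20% of their exon bases with another gene, and of these 36 were lower and 5 higher. Their medians were -0.76 in the large and -0.43 in the small subunit. The 79 rows of mitochondrial ribosomal pseudogenes summed to 289 to 434 counts per library, at most 0.324% of the members' counts.

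The members lie on all autosomes but 18, and their changes varied with position. On chromosome 11, 5 of 7 were lower, with a median of -1.11. On chromosome 19 it was 3 of 4, with a median of -1.46, and on chromosome 1 it was 7 of 8. Chromosomes 2 and 5 held 4 of the 7 rises. MRPL30 and MRPS5 are on chromosome 2, and MRPL36 and MRPS30 on the short arm of chromosome 5.

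The members followed their neighbours in part. For each member the median log2 fold change of protein-coding neighbours within 5 Mb was taken, over 13 to 211 genes. These medians ran from -1.64 around MRPS26 to 1.57 around MRPS30. Around MRPL36 the median was 0.89 and around MRPS35 it was 0.61. Across the 77 members, which share the same 6 libraries and in part the same windows, members and neighbours had a Pearson r of 0.50 and a Spearman rho of 0.51. Without MRPS24 the r was 0.60. Most members nevertheless lay below their neighbourhood, namely 59 of 77, with a median difference of -0.46. The values around single genes depended on the window. Around MRPL23 the median was -0.28, -0.36 and -0.40 within 2, 5 and 10 Mb, in each case above its own change. Around MRPL44 it was -1.10, -0.28 and -0.68, around MRPS33 it was -0.48, 0.20 and 0.04, and around MRPS14 it was 0.36, 0.16 and -0.15. These 3 genes also lay below their neighbours in each window, but the sign of the neighbours turned for MRPS33 and MRPS14.

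**Figure D4:**
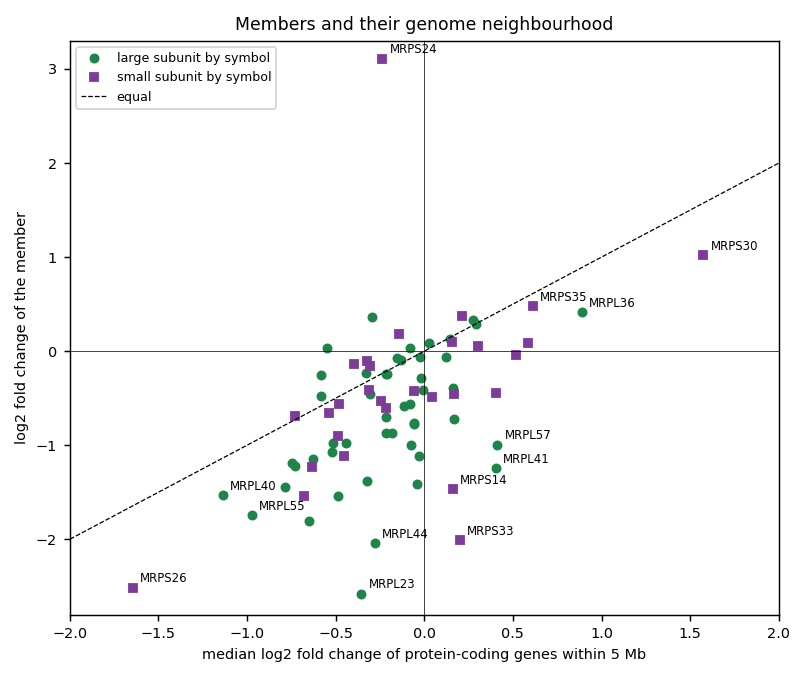
The log2 fold change of each of the 77 members against the median of other protein-coding genes within 5 Mb, with circles for the large and squares for the small subunit; the dashed line marks equal values. MRPS26 at the lower left and MRPS30 at the upper right move with their regions, most points lie below the line, and MRPS24 stands far above it.

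Many of these genes share a start region with a gene on the other strand. A divergent protein-coding neighbour that starts within 1000 bases was annotated for 17 of the 77 members (22.1%), against 8.96% of all 14207 protein-coding genes tested. Of the 16 such neighbours tested, 5 were lower, 4 higher and 7 did not pass, against 43.5% of protein-coding genes lower and 33.5% higher. MRPS11, among the lower, and MRPL46, among those not passing, are themselves members. Across these pairs, the log2 fold changes of member and neighbour had a Pearson r of 0.17. The pair of MRPS11 and MRPL46 enters this value from both sides. MRPL36 and its neighbour NDUFS6, a subunit of respiratory complex I, were both higher, with NDUFS6 at 158 CPM in olaparib and 89.5 CPM in DMSO. MRPL30 and MITD1 were both higher too, with a log2 fold change of 1.31 for MITD1. MRPL18 and TCP1, a subunit of the cytosolic chaperonin, were both lower. Other pairs parted. MRPL41 was lower while PNPLA7 was higher (2.57), and MRPS34 was lower while EME2 was higher (1.42).

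In 1 divergent pair both genes are members. MRPS11 and MRPL46 start 34 bases apart on chromosome 15 by the GENCODE annotation. MRPS11 had 48.6, 46.5 and 39.4 CPM in the olaparib libraries, against 70.8, 67.2 and 56.9 CPM in the DMSO libraries, and was lower (-0.53 ± 0.12 (SE)). MRPL46 had 13.3, 13.3 and 11.2 CPM in the olaparib libraries, against 10.6, 10.3 and 8.45 CPM in the DMSO libraries. All its olaparib values stood above its DMSO values, but at an adjusted p of 0.0612 by edgeR it did not pass. MRPL46 shares 45.4% of its exon bases with another annotated gene on the same strand, so its part in this contrast is uncertain.

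Of the 77 tested members, 68 had a RefSeq promoter, from 250 bases before to 50 after the start, and the motifs marked above were counted there on both strands. The ETS motif occurred in 28 members (41.2%), against 17.6% of 11355 promoters of tested genes. The YY1 motif occurred in 13 (19.1%), against 3.59%, and the NRF1 motif in 8 (11.8%), against 10.7%. No member's promoter held overlapping matches of different motifs. Of the 28 members with the ETS motif 20 were lower, as were 20 of the 40 without it. With the YY1 motif 3 of 13 were lower and 3 higher, and without it 37 of 55 were lower. A match is a run of letters and not a bound site.

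Proteins of the mitochondrial ribosome under other symbols went both ways. DAP3, a GTP-binding protein of the head, was 2.12-fold higher, at 319 ± 1.08 CPM in olaparib and 151 ± 6.59 CPM in DMSO (SD, n = 3 each). PTCD3 was 1.57-fold higher. GADD45GIP1, known as CRIF1 and placed near the tunnel exit, was 2.90-fold lower, at 46.4 ± 2.18 CPM in olaparib and 135 ± 16.1 CPM in DMSO. AURKAIP1 was lower, with a log2 fold change of -0.59, and CHCHD1 did not pass.

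The mitochondrial rRNAs around which the members assemble parted. MT-RNR1, the rRNA of the small subunit, had 423, 346 and 324 CPM in the olaparib libraries, against 1449, 1711 and 976 CPM in the DMSO libraries, with no overlap (log2 fold change -1.92 ± 0.19, SE, edgeR adjusted p = 1.92e-06). MT-RNR2, the rRNA of the large subunit, had 4339, 3719 and 3563 CPM in olaparib and 3467, 4403 and 4005 CPM in DMSO, where the groups overlapped. The sources used do not give how rRNA was removed or mRNA selected, and its part in these values was not tested. Of the 13 proteins encoded in mitochondria, which this ribosome makes, 11 mRNAs were higher and 1 lower, with a median log2 fold change of 0.85. MT-ND4, a complex I subunit, was 2.21-fold higher, and MT-ND3 was the lower one.

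Factors that build and serve the ribosome were mixed, and the shares below stand beside 40.3% of all genes lower and 35.4% higher. Of 29 assembly genes 18 were lower and 5 higher, with a median of -0.44 close to that of the members. MTERF4, which brings the methyltransferase NSUN4 to the large subunit rRNA, was 3.27-fold lower, and NSUN4 was 1.43-fold higher. DHX30, a helicase of mitochondrial RNA granules, was 2.98-fold lower, and the RNA methyltransferase TRMT2B was 1.48-fold higher. Of 20 translation factors 9 (45.0%) were lower and 8 (40.0%) higher, close to the shares of all genes. The recycling factor MRRF and the initiation factor MTIF2 were 2.83-fold and 2.11-fold higher, and SLIRP, which protects mitochondrial mRNAs, and TACO1, an activator of COX1 translation, were 2.48-fold and 1.91-fold lower.

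Of 22 genes that charge mitochondrial tRNAs, 12 were lower and 5 higher. MARS2, the methionyl-tRNA synthetase, was 3.81-fold lower and GATC 2.27-fold lower, while HARS2 and IARS2 were 1.66-fold and 1.39-fold higher. Of 21 genes of mitochondrial DNA maintenance and transcription, 9 (42.9%) were higher and 4 (19.0%) lower, and their median of 0.06 turned to -0.00303 with scaling by library size alone. The RNA polymerase POLRMT and TRMT10C, a subunit of RNase P, were each 1.47-fold higher, and the nucleases MGME1 and RNASEH1 were 2.69-fold and 2.15-fold lower. Of 20 proteases, chaperones and import proteins 7 were lower and 6 higher. The import channel proteins TOMM22 and TOMM40 were 5.44-fold and 3.46-fold lower, and the proteases' subunits SPG7 and CLPX were 2.005-fold and 1.89-fold higher.

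Of 11 known regulators of nuclear genes for mitochondria, 3 were lower and 2 higher. PPARGC1A, a coactivator of mitochondrial biogenesis, was 3.21-fold higher. HCFC1 was 1.38-fold higher, but its groups overlapped and its adjusted p was 0.0467 by edgeR. PPARGC1B, a relative of PPARGC1A, was 3.47-fold lower, and YY1 was 1.24-fold lower. The cytosolic ribosomal proteins, by comparison, were lower in 69 of 79 and higher in 1, RPL37, with a median log2 fold change of -1.23, below that of either mitochondrial subunit. RPL36 and RPSA were 5.84-fold and 5.48-fold lower. No test of any list against another was made.

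**Figure D5:**
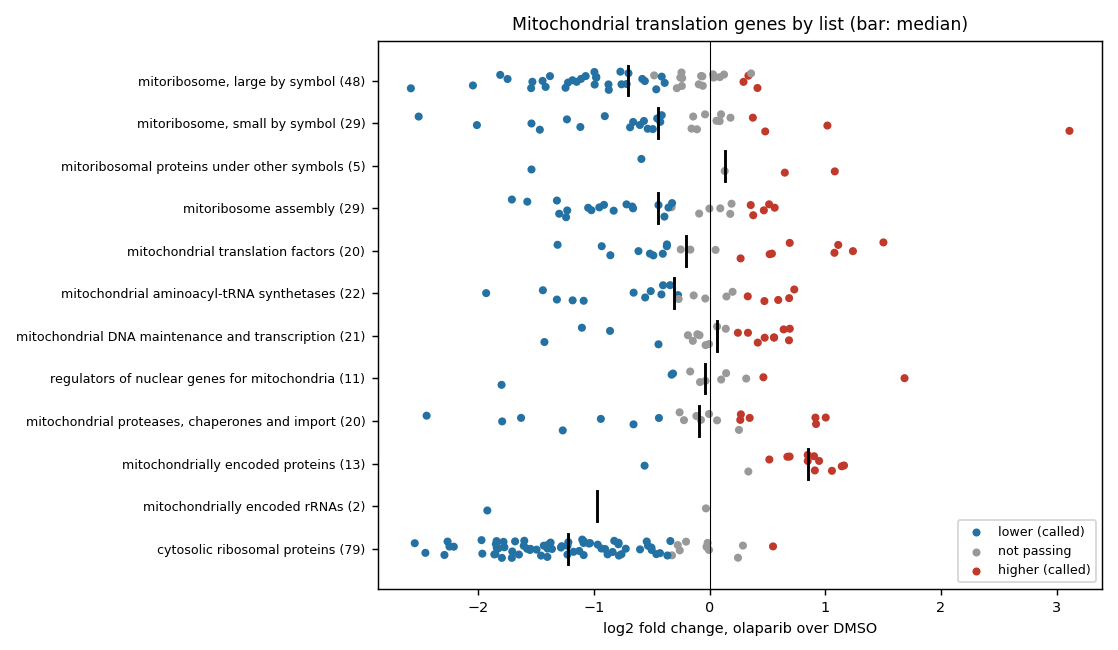
The log2 fold change, olaparib over DMSO, of each gene in 12 groups, with the number tested in brackets; blue and red points were called lower and higher and black bars are medians. Both mitochondrial ribosome subunits lie mostly left of 0, cytosolic ribosomal proteins further left, and mitochondrially encoded proteins right of 0.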

How the data were processed

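RNA sequencing gave 6 libraries labelled RKO, deposited by the authors as a single table of raw counts per gene symbol. Fastp, STAR and hg38 appear in the submitters' processing notes. Which program counted the reads, with which strand setting and annotation, is not stated in the sources used, so reads of overlapping or antisense genes cannot be separated. The raw counts were tested with edgeR 4.0.16 (R 4.3.3), using TMM scaling, filterByExpr, a robust quasi-likelihood fit and no covariate beside treatment. Benjamini-Hochberg adjustment ran over the 17078 genes tested. Levels are CPM, relative to the TMM-scaled total, as mean ± SD or per library, and standard errors come from the F statistic. The fit was also run on simulated data in which few genes changed, unlike these libraries, so that run cannot check the calls made here. Members, lists, markers and motifs were chosen with earlier results of these data known. Values per library are given for, in each subunit, the 5 largest called rises and falls without overlap and with a mean of at least 1 CPM, for the 3 highest levels, and for members fixed by function or by their symbol. Of each list up to 2 genes called higher and 2 called lower, with the smallest adjusted p, are named. For a few further members and for MRPS30-DT, URGCP and divergent neighbours, naming followed after their values were seen. Symbols were matched to GENCODE release 29 for 93.7% of rows. Lengths are medians over annotated coding transcripts. Promoters come from RefSeq (GRCh38.p14). Alternatives were DESeq2 1.42.0, limma-voom 3.58.1, other scalings and filters, a replicate block and the loss of each library. A planned marker is not reported here. Groups and replicate numbers are those of the sample titles.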

Additional observations from a re-analysis of the deposited data

How the results depend on the processing

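Of the 54 called members, 52 kept their call and direction under all 13 alternatives, and MRPL3 and MRPS36 lost theirs without certain libraries, as given above. A call was gained in at least 1 alternative by 7 others, namely MRPL14, MRPL22, MRPL32, MRPL38, MRPL46, MRPL48 and MRPS15. Leaving out each library gave 46 to 52 members lower and 6 to 8 higher, medians of -0.77 to -0.62 for the large and -0.48 to -0.39 for the small subunit, and differences of -0.30 to -0.23. The log2 change of the summed level ran from -0.78 to -0.65 for the large and from -0.31 to -0.21 for the small subunit, and that of their ratio from -0.47 to -0.44. List genes ran from 113 to 126 lower and 40 to 53 higher.

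Some uncalled members changed sign, with log2 fold changes near 0. With library size alone these were MRPL19 (-0.0336), MRPL47 (-0.0363) and MRPS22 (-0.00743). With each library left out in turn, MRPL19 ran from -0.115 to 0.136, MRPL34 from -0.193 to 0.0191, MRPL35 from -0.196 to 0.0122 and MRPL47 from -0.0534 to 0.0776. So did the medians of ribosomal proteins under other symbols, from -0.00820 to 0.195, and of regulators, from -0.0829 to 0.0492. The median of mitochondrial DNA maintenance turned to -0.00303 with library size alone. The log2 change of the summed small subunit was -0.25, but -0.316 with library size alone, -0.362 by structure and -0.368 without MRPS30. That of the large subunit was -0.71, and -0.617 by structure. The log2 change of their ratio was -0.46, but -0.255 by structure, -0.340 without MRPS30, -0.387 without MRPL37 and -0.546 over members sharing under 20% of exon bases. Leaving out MRPS30, MRPL37 or members with shared exons was chosen after seeing the data, and changes only which genes are summed. Scaling by library size moved the median of all genes from -0.09 to -0.16. The cause was not tested. Windows of 2 and 10 Mb around the members gave median differences from neighbours of -0.48 and -0.44.

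Same-numbered libraries did not deviate together (r of -0.0901, -0.0423 and -0.00173), and with the replicate number as a block 47 members were lower and 7 higher, as without it, with medians of -0.70 and -0.44. Of weakly expressed members such as MRPS28, MRPL2 and MRPL38, the fold changes had the larger standard errors.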
